A study of Mus musculus with 9 samples.

Results

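Fgf21, Gdf15, Enho, Inhbe, Angptl4, Angptl6, Lect2, Ahsg, and Fetub encode proteins that the liver secretes and that act on metabolism, often called hepatokines. The genes were taken by name, as the rows of the deposited expression tables that carry these symbols and are above 0 in at least 1 liver, and all 9 met this rule, of 23183 gene symbols in the tables. RNA was sequenced from the livers of 9 males of C57BL/6J, an inbred strain that becomes obese on a high-fat diet, at postnatal day 100, with 1 library per mouse and 3 mice in each of the ND, HFD, and PRF 50 groups. The ND mice (numbers 6, 7, and 9) ate a normal diet with 14% fat for 10 weeks, and the HFD mice (1, 2, and 3) ate a diet with 60% fat for the same time. The PRF 50 mice (3, 9, and 10) ate the same high-fat diet and were given 50 mg/kg of PRF by mouth each day for the last 5 weeks. PRF is a polymethoxyflavone-rich fraction of the leaf of Jinkyool (Citrus sunki), diluted in carboxymethyl cellulose, and whether the ND and HFD mice received this vehicle is not stated in the sources used here. All mice had fasted for 8 h before the tissue was taken, and equal mouse numbers in different groups do not mark the same animal.

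Hepatokines carry information on the state of the liver to other organs. Some act as hormones through a dedicated receptor, some alter lipases or proteases in the blood, and some circulate in large amounts as plasma proteins. In hepatocytes their genes answer to fasting and feeding through nuclear receptors, to carbohydrate through a glucose-responsive factor, and to cell stress through the integrated stress response.

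Values are given as FPKM (fragments scaled to transcript length and library size), from deposited values read as log2(FPKM + 1). The labelled tissue was checked with 10 hepatocyte marker genes, whose summed level lay between 21708 and 32632 FPKM over the 9 livers. The most abundant of them was the apolipoprotein gene Apoa1, with 6616 to 11595 FPKM. Albumin (Alb) is listed at 0 in all 9 livers, so a gene at exactly 0 is described here only as listed at 0.

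The 9 genes covered a wide range of levels per length. Averaged over the 9 livers, Ahsg had 3881 FPKM and rank 16 of 23183 genes, Fetub had 284 FPKM and Lect2 had 226 FPKM. Angptl4 followed with 46.7 FPKM, Inhbe with 29.3 FPKM and Enho with 18.7 FPKM, and Angptl6 (7.89 FPKM), Gdf15 (5.17 FPKM), and Fgf21 (1.64 FPKM, rank 9048) were lowest. The fold between the highest and the lowest mouse was 28.2 for Fgf21, 11.2 for Enho, 8.80 for Gdf15, and 4.47 for Inhbe. It was 2.65 for Lect2, 2.29 for Angptl4, 2.05 for Fetub, 1.91 for Angptl6, and 1.57 for Ahsg.

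**Figure D1:**
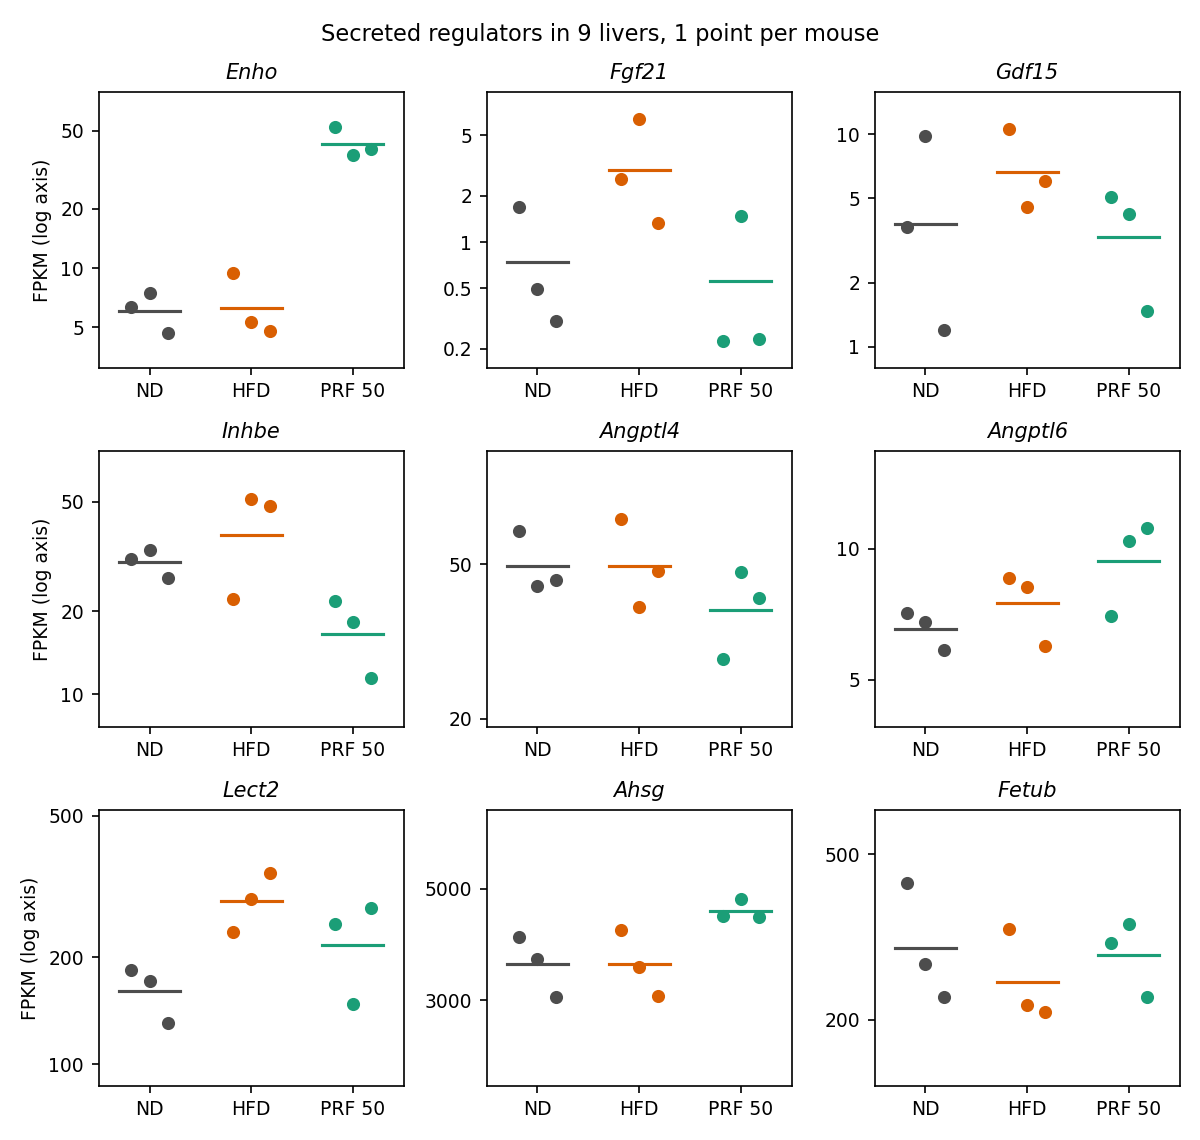
FPKM of the 9 genes in each of the 3 ND, 3 HFD, and 3 PRF 50 mice, on log axes that differ in range between panels. Each point is 1 mouse, and the lines are group means taken on the log2(FPKM + 1) scale. The PRF 50 mice lie between 37.7 and 52.4 FPKM for Enho, above all other mice.

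Between the PRF 50 and HFD groups, Enho was the 1 gene of the 9 with a Benjamini-Hochberg adjusted limma p under 0.05, where 3.59% of the 10084 genes tested had one. Of the 9 genes, 3 (Fgf21, Enho, and Inhbe) passed the looser rule of a fold change above 2 and an unadjusted p under 0.05, against 2.1% of all tested genes. At an unadjusted p under 0.05 alone the count was the same 3 genes, against 20.2% of all tested genes. Fgf21 reached the minimum mean of 1 FPKM only through the HFD mice, where it was high, so its place in these counts is no support. The 3 mice of each group did not overlap for Enho, Inhbe, and Ahsg, and this separation held for 26.2% of all tested genes. The median log2 fold change of the 9 genes was -0.37 and that of all tested genes was -0.015, with 4 of the 9 higher and 5 lower in the PRF 50 group.

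Between the HFD and ND groups, 0 of the 9 genes had an adjusted limma p under 0.05, where 1.33% of 9978 tested genes did. An unadjusted p under 0.05 was reached by 2 of them (Fgf21 and Lect2), where 15.1% of all tested genes reached it, and Fgf21 alone also had a fold change above 2, against 1.34% of all tested genes. Here too Fgf21 reached the minimum level only through the HFD mice, where it was high. The groups were separated for Lect2, and for 20.7% of all tested genes. The median log2 fold change was 0.17 for the 9 genes and -0.009 for all tested genes.

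Between the PRF 50 and ND groups, Fgf21 was below the minimum mean of 1 FPKM, and 8 of the 9 genes were tested. Enho was again the 1 gene with an adjusted limma p under 0.05, where 0.458% of 10051 tested genes had one. It was also the 1 gene with an unadjusted p under 0.05 and a fold change above 2, against 1.76% of all tested genes. An unadjusted p under 0.05 alone was reached by 3 of the 8 (Enho, Inhbe, and Angptl6), and by 12.5% of all tested genes. Enho, Inhbe, and Ahsg were separated between these groups, as were 19.9% of all tested genes, and the median log2 fold change was 0.15 for the 8 genes and -0.031 for all tested genes. The comparison of PRF 50 with HFD shares its HFD mice with that of HFD and ND, and its PRF 50 mice with that of PRF 50 and ND, so the 3 comparisons are not independent.

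**Figure D2:**
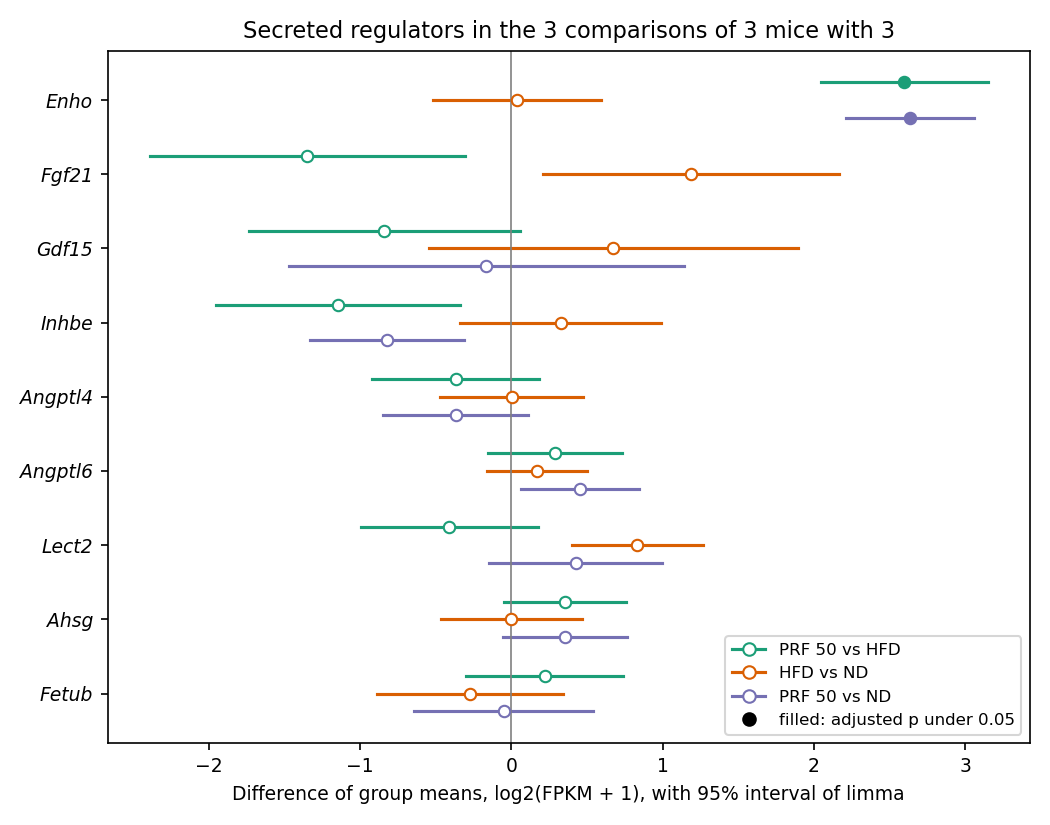
Differences between group means on the log2(FPKM + 1) scale for the 9 genes in the 3 comparisons, with the 95% interval of limma as lines and 3 mice in each group. Filled points have an adjusted p under 0.05, which was reached by Enho at 2.60 for PRF 50 vs HFD and at 2.64 for PRF 50 vs ND. Fgf21 is not drawn for PRF 50 vs ND, where it was not tested.

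Fgf21 (GRCm38 chromosome 7, 45613886 to 45615490) encodes a hormone that hepatocytes release in fasting and under metabolic stress, and that acts through FGF receptors together with beta-klotho. Its level was 1.69, 0.490, and 0.305 FPKM in ND mice 6, 7, and 9. It was 2.60, 6.38, and 1.33 FPKM in HFD mice 1, 2, and 3, and 0.226, 1.47, and 0.234 FPKM in PRF 50 mice 3, 9, and 10. HFD mouse 2 was highest of the 9, PRF 50 mice 3 and 10 were lowest, and the groups overlapped because ND mouse 6 and PRF 50 mouse 9 were above HFD mouse 3. The log2 fold change was -1.35 for PRF 50 vs HFD (standard error 0.44, adjusted p = 0.151) and 1.19 for HFD vs ND (standard error 0.42, adjusted p = 0.253), and neither passed the adjusted threshold. With a pseudocount of 0.1 these were -2.40 (adjusted p = 0.13) and 1.96 (adjusted p = 0.23), and the ratio of mean FPKM was 0.188 for PRF 50 to HFD and 4.15 for HFD to ND, so the size of the Fgf21 fold depends on the added 1. Over all alternatives the adjusted p lay between 0.117 and 0.321 for PRF 50 vs HFD and between 0.198 and 0.533 for HFD vs ND. The fold change above 2 between PRF 50 and HFD was lost without HFD mouse 2, with a log2 fold change of -0.90, and the unadjusted p was 0.05 or more without PRF 50 mouse 3 or without PRF 50 mouse 10. For HFD vs ND, the looser rule was no longer met without HFD mouse 2, ND mouse 7, or ND mouse 9. Between PRF 50 and ND the group means differed by -0.16 on the log2 scale, and with no minimum level, where Fgf21 was tested, the adjusted limma p was 0.891.

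Few fragments lie behind the Fgf21 values. The deposited tables hold no read counts, but their low values step by whole fragments, which gave depths of 1.06, 1.15, and 1.11 for ND mice 6, 7, and 9 relative to HFD mouse 1. HFD mice 2 and 3 had relative depths of 1.17 and 1.60, and PRF 50 mice 3, 9, and 10 had 0.981, 1.51, and 0.962. With 1 fragment on Fgf21 taken as 0.112 FPKM at the depth of HFD mouse 1, about 16, 5, and 3 fragments came from ND mice 6, 7, and 9, about 23 and 19 from HFD mice 1 and 3, and about 2, 20, and 2 from PRF 50 mice 3, 9, and 10. The unit was chosen so that these estimates lay within 0.2 of a whole number, so their closeness to whole numbers is no support for them. That of HFD mouse 2, about 66, was not held to this and is approximate. At such counts, the spread among mice includes counting error that was not separated here. For the other genes a separate unit was used, 0.089 FPKM for 1 fragment on 1 kb at the depth of HFD mouse 1. Estimated from transcript length, they had at least about 23 fragments in each liver (Gdf15 in ND mouse 9), and Enho had about 74 to 813.

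Fgf21 and Inhbe were the members with an unadjusted limma p under 0.05 and a level lower in PRF 50 than in HFD, and the 250 bases before the RefSeq start of each gene are shown for that reason. The sequences are from RefSeq on GRCm38.p6, in which 7 of the 9 members were matched and Enho and Angptl4 were not. Both are on the minus strand and written 5′ to 3′ toward the start, Fgf21 from chr7:45615491-45615740 and Inhbe from chr10:127351849-127352098. The Fgf21 stretch adjoins the GENCODE start of the gene, but GENCODE starts Inhbe further upstream, at 127354411, so the Inhbe stretch lies inside the gene as GENCODE annotates it. Which start these livers used was not measured. Capitals mark the letters of TGATGNAA, the core of the composite element of C/EBP and ATF factors, which lies on the opposite strand in both.
Fgf21: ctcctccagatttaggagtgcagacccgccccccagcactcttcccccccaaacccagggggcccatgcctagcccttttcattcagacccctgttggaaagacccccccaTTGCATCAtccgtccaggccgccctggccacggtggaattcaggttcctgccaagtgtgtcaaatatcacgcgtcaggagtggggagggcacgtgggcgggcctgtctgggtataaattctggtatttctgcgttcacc
Inhbe: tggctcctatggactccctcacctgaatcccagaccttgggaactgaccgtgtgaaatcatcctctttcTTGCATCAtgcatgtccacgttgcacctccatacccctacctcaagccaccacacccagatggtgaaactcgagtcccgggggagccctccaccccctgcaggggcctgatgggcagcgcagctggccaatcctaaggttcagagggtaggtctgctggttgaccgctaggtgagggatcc

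The match lies 132 to 139 bases before the RefSeq start of Fgf21 and 174 to 181 bases before the RefSeq start of Inhbe, which for Inhbe is inside the GENCODE gene, and reads TTGCATCA on the strand of the gene in each. On either strand, TGATGNAA was found in 3.45% of 32851 promoters of this length. In the other 5 matched members it was not found in this window. The motifs AGGTCA (14% of promoters) and TGACGTCA (1.55%) were searched in the same way, and the 1 match among the members was AGGTCA, 50 to 55 bases before a start of Gdf15. No match overlapped another. A match is a description of letters, and binding of a factor was not measured.

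The receptors of FGF21 are in the tables with the following levels. Klb, which encodes beta-klotho, had group means of 8.46, 8.68, and 9.24 FPKM in ND, HFD, and PRF 50. Fgfr4, the main FGF receptor of hepatocytes, was between 8.27 and 8.94 FPKM in the ND mice and between 5.01 and 5.58 FPKM in the HFD mice, without overlap. It fell by 0.60 on the log2 scale in HFD vs ND (standard error 0.094, adjusted p = 0.0309), a call that was lost without any 1 of the 6 mice, with all 9 mice in 1 fit, and with no minimum level. Of the 6 genes of the list (Klb, Fgfr1, Fgfr2, Fgfr3, Fgfr4, and the protease Fap), 5 were tested for PRF 50 vs HFD, and 0 had an adjusted limma p under 0.05, with 3 (Fgfr1, Fgfr2, and Fgfr4) at an unadjusted p under 0.05, all higher in PRF 50. The median log2 fold change of these 5 was 0.47, against -0.015 for all tested genes.

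Fgf21 is a target of PPARA, the nuclear receptor that turns on fatty acid use in fasting, and so is Angptl4. On the list of 19 genes of PPARA and its liver targets, 12 of 19 fell in PRF 50 vs HFD (adjusted limma p under 0.05), 0 rose, and the median log2 fold change was -1.05. From ND to HFD, 3 of 19 rose (Vnn1, Cyp4a14, and the carnitine transferase gene Cpt1a, named after its values were seen) and the median was 0.60, and without HFD mouse 1 the count was 6. In PRF 50 vs ND, 3 of 18 fell (Ehhadh, Cd36, and Acaa1b) and the median was -0.56, with 0 called without ND mouse 6 or 7, without PRF 50 mouse 3 or 10, or with no minimum level, 1 without ND mouse 9, and 5 with all 9 mice in 1 fit. The pantetheinase gene Vnn1 shows the pattern, with 28.3 to 29.2 FPKM in the ND mice, 61.9 to 89.2 FPKM in the HFD mice, and 18.7 to 29.1 FPKM in the PRF 50 mice. HFD stood above both other groups without overlap for Vnn1, and its log2 fold change was -1.66 in PRF 50 vs HFD (adjusted p = 0.0147) and 1.40 in HFD vs ND (adjusted p = 0.00731). The first of these calls was lost without HFD mouse 2 or 3 or PRF 50 mouse 3.

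The acyl-CoA thioesterase gene Acot1 had 23.6 to 31.4 FPKM in the HFD mice and 2.04 to 5.51 FPKM in the PRF 50 mice (log2 fold change -2.49, adjusted p = 0.0147). The omega-hydroxylase gene Cyp4a14 had 263 to 309 FPKM and 2.08 to 20.2 FPKM in the same groups. Both genes separated the groups in all 6 mice, and both calls were lost without HFD mouse 2 or without HFD mouse 3. The number of PPARA genes called in PRF 50 vs HFD was 1 without HFD mouse 2, 0 without HFD mouse 3, 3 without PRF 50 mouse 3, and 5 without PRF 50 mouse 10, and 7 with no minimum level. Ppara itself had group means of 49.5, 74.5, and 52.2 FPKM in ND, HFD, and PRF 50, and differed by -0.52 on the log2 scale between PRF 50 and HFD (adjusted p = 0.083). Whether the PPARA targets and Fgf21 share a cause was not tested.

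Fgf21 is also a target of ChREBP, the glucose-responsive factor encoded by Mlxipl. Of Mlxipl and its targets, 4 of 10 (Pklr, Tkfc, G6pc, and Thrsp) fell in PRF 50 vs HFD (adjusted limma p under 0.05) with a median log2 fold change of -0.71, and 0 were called without HFD mouse 2 or without HFD mouse 3, 1 without PRF 50 mouse 3, and 2 without PRF 50 mouse 10 or with no minimum level. The call of Tkfc was also lost with quantile normalization and with median-of-ratios scaling. For HFD vs ND, 0 of 10 had an adjusted limma p under 0.05, and 1 (Mlxipl) had an unadjusted p under 0.05. Between PRF 50 and ND, 1 of 10 (Txnip) fell, with a log2 difference of -1.21 and an adjusted p of 0.0217. The median of the 10 was -0.83, and 6 of them had an unadjusted p under 0.05. The call of Txnip was lost without ND mouse 6 or 7 or PRF 50 mouse 3, with all 9 mice in 1 fit, and with no minimum level.

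Over the 9 livers and 10048 genes averaging 1 FPKM or more, the genes most like Fgf21 were Gm16157 (Pearson's r = 0.956), Serpinb8 (0.944), and Lpcat3 (0.917). These coefficients, and those given for the other members, describe 9 livers that include the group differences, and carry no test.

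Gdf15 (chromosome 8, 70629393 to 70632456) encodes a stress-induced hormone of the TGF-beta superfamily that lowers appetite through the receptor GFRAL in the hindbrain. It was 3.65, 9.81, and 1.20 FPKM in ND mice 6, 7, and 9. It was 10.5, 4.55, and 6.03 FPKM in HFD mice 1, 2, and 3, and 5.06, 4.22, and 1.47 FPKM in PRF 50 mice 3, 9, and 10. The ND mice alone spanned most of the range, and all 3 groups overlapped. The log2 fold change was -0.84 for PRF 50 vs HFD (standard error 0.38, adjusted p = 0.278), 0.67 for HFD vs ND (adjusted p = 0.595), and -0.17 for PRF 50 vs ND (adjusted p = 0.924), none beyond the spread among mice. Without ND mouse 7 the difference between PRF 50 and ND turned to 0.42, and without PRF 50 mouse 10 to 0.23. A fold change above 2 with an unadjusted p under 0.05 was reached in PRF 50 vs HFD without HFD mouse 2 (log2 fold change -1.07) or without PRF 50 mouse 3 (-1.09), and in HFD vs ND without ND mouse 7 (1.26). The difference shrank to -0.54 without HFD mouse 1 and to -0.44 without PRF 50 mouse 10 in PRF 50 vs HFD, and to 0.38 without HFD mouse 1 and 0.11 without ND mouse 9 in HFD vs ND. Between PRF 50 and ND it was -0.73 without ND mouse 9, -0.42 without PRF 50 mouse 3, and -0.31 without PRF 50 mouse 9.

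The receptor gene Gfral is listed at 0 in all 9 livers, and its signaling partner Ret was above 0 in 1 liver, that of HFD mouse 3, with 0.00875 FPKM. Among the proteases that process or shed such ligands, Furin had group means of 46.7, 50.7, and 47.5 FPKM in ND, HFD, and PRF 50. Pcsk6 was 29.4 to 39.3 FPKM in the HFD mice and 20.2 to 25.9 FPKM in the PRF 50 mice, without overlap (log2 fold change -0.52, adjusted p = 0.0863), and the HFD mice were also above the ND mice at 22.4 to 28.1 FPKM. Mmp14 had means of 7.12, 6.40, and 8.99 FPKM. Of these genes, 0 of 3 tested had an adjusted limma p under 0.05 in each comparison, with an unadjusted p under 0.05 for Pcsk6 and Mmp14 in PRF 50 vs HFD and for Pcsk6 in HFD vs ND.

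Gdf15, Fgf21, and Inhbe are known targets of the integrated stress response, in which ATF4 and CHOP act on amino acid and stress genes. Of 14 genes of this response tested for PRF 50 vs HFD, 1 rose, Asns for asparagine synthetase, and the median log2 fold change of the 14 was -0.014. Asns was 0.287, 0.205, and 0.0898 FPKM in HFD mice 1, 2, and 3 and 2.14, 6.62, and 2.23 FPKM in PRF 50 mice 3, 9, and 10. The groups did not overlap, and the log2 fold change was 1.84 (adjusted p = 0.0342), a call lost with no minimum level and without any 1 mouse apart from PRF 50 mouse 9. Without that mouse Asns was below the minimum level and was not tested. Asns reached this level only through the PRF 50 mice, where it was high.

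Atf4 had group means of 47.9, 31.3, and 32.4 FPKM in ND, HFD, and PRF 50, and Ddit3, which encodes CHOP, had 6.07, 6.10, and 4.70 FPKM. For HFD vs ND, 0 of 13 genes had an adjusted limma p under 0.05 and 6 an unadjusted p under 0.05 (2 higher and 4 lower), and in PRF 50 vs ND the counts were 0 of 14 and 7 (3 higher and 4 lower). Most like Gdf15 over the 9 livers were Atxn7 (r = 0.904), Praf2 (0.898), and Scly (0.879).

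Enho (chromosome 4, 41638144 to 41640324) encodes adropin, a small secreted peptide of energy homeostasis. It was 6.37, 7.49, and 4.67 FPKM in ND mice 6, 7, and 9, and 9.48, 5.32, and 4.77 FPKM in HFD mice 1, 2, and 3. In PRF 50 mice 3, 9, and 10 it was 52.4, 37.7, and 40.2 FPKM. All 3 PRF 50 mice stood far above the other 6, the ND and HFD mice were intermixed, and the lowest PRF 50 mouse was above the highest other mouse.

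On the log2(FPKM + 1) scale Enho was 2.82 ± 0.30 in ND, 2.86 ± 0.46 in HFD, and 5.46 ± 0.25 in PRF 50 (SD, n = 3 each). It rose by 2.60 in PRF 50 vs HFD (standard error 0.24, 95% interval 2.05 to 3.15, adjusted p = 0.00711) and by 2.64 in PRF 50 vs ND (standard error 0.18, adjusted p = 0.00228). It had the 10th highest log2 fold change of 10084 genes in the first comparison and the 9th highest of 10051 in the second. The ratio of mean FPKM was 6.66 to HFD and 7.04 to ND. Its log2 fold change in HFD vs ND was 0.04 (95% interval -0.52 to 0.59, adjusted p = 0.96). The call held in every alternative and without any 1 mouse, with adjusted p between 0.00113 and 0.0351 for PRF 50 vs HFD. Enho reached the alternative minimum of 10 FPKM only through the PRF 50 mice, where it was high, so that setting is no support.

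Enho is overlapped by genes on the opposite strand, Dnaic1 with a mean of 0.243 FPKM and Gm12406, for which no value was used. The library kit keeps the strand, whether the counting used it is not stated, and reads of such partners cannot be told apart without it. The genes nearest to Enho on the chromosome did not share its difference. Within 200 kb, 9 other genes averaged 1 FPKM or more, and their log2 fold changes in PRF 50 vs HFD lay between -0.20 for Rpp25l and 0.15 for Il11ra1, with adjusted limma p of 0.37 or more.

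**Figure D3:**
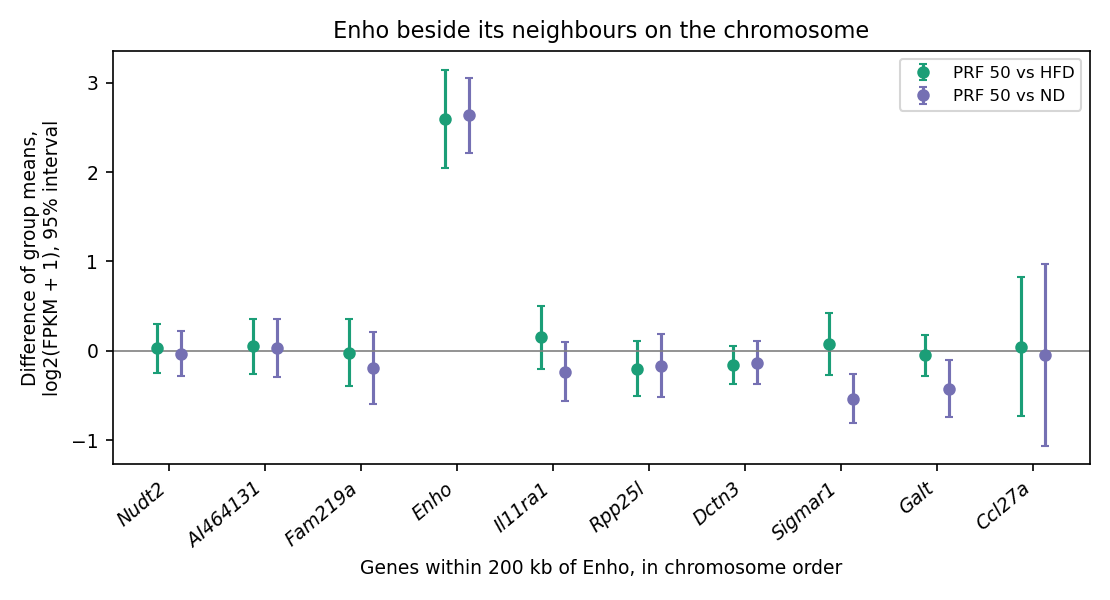
Differences between group means, on the log2(FPKM + 1) scale with 95% intervals of limma, for Enho and the 9 genes within 200 kb of it that averaged 1 FPKM or more, in their order on the chromosome. Enho lies at 2.60 and 2.64, while its neighbours lie between -0.20 and 0.15 in PRF 50 vs HFD.

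Enho transcription is known to follow nuclear receptors of the clock, among them the REV-ERB repressors. Rora, an activator of this kind, had group means of 9.73, 9.92, and 9.42 FPKM in ND, HFD, and PRF 50. The REV-ERB genes were Nr1d1 with 35.6, 20.4, and 25.6 FPKM as ND, HFD, and PRF 50 means, and Nr1d2 with 21.1 to 27.8 FPKM over the 9 livers. The liver X receptor genes Nr1h3 (46.0, 51.0, and 52.7 FPKM) and Nr1h2 (16.4, 14.9, and 16.6 FPKM) and the estrogen receptor gene Esr1 (2.10, 2.82, and 3.77 FPKM) had no adjusted p under 0.05. Gpr19, a candidate adropin receptor, had means of 2.11, 1.06, and 1.62 FPKM, and Cntn6 is listed at 0 in all 9 livers. On this list of regulators and receptors, 0 of 8 tested genes had an adjusted limma p under 0.05 in PRF 50 vs ND, and 2 (Nr1d1 and Esr1) had an unadjusted p under 0.05. The repressor gene Bhlhe41 was the 1 of 17 tested clock genes called in HFD vs ND, with a log2 fold change of -0.98 (adjusted p = 0.032) that passed without HFD mouse 2 but not without any other mouse or with no minimum level.

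Macrophage genes were high in the same mice as Enho. The 13 markers of Kupffer cells or macrophages summed to 109, 204, and 267 FPKM in ND mice 6, 7, and 9 and to 139, 223, and 223 FPKM in HFD mice 1, 2, and 3. In PRF 50 mice 3, 9, and 10 they summed to 756, 427, and 490.3 FPKM, above all other mice, and no marker is listed at 0 throughout. The most abundant, Cd5l, was 129, 77.3, and 89.2 FPKM in the PRF 50 mice and 18.2 to 42.5 FPKM in the other 6. Of the 13 markers, 10 rose in PRF 50 vs HFD (adjusted limma p under 0.05) with a median log2 fold change of 1.40, among them Timd4 (1.49, adjusted p = 0.015) and Vsig4 (1.27, adjusted p = 0.0182). The call of Timd4 was lost without HFD mouse 3 or PRF 50 mouse 3, and that of Vsig4 without HFD mouse 2 or 3, without PRF 50 mouse 3, or with all 9 mice in 1 fit.

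The number of macrophage markers called was 1 without HFD mouse 2, 0 without HFD mouse 3, 1 without PRF 50 mouse 3, 5 without PRF 50 mouse 10, and 2 with no minimum level. The median in PRF 50 vs ND was 1.35, with 0 of 13 at an adjusted limma p under 0.05 and 13 at an unadjusted p under 0.05. The median in HFD vs ND was 0.033, with 0 of 12 at either. The genes most like Enho over the 9 livers were Cd300a (r = 0.948), a receptor of myeloid cells, Arl13b (0.947), a GTPase of cilia, and Unc93b1 (0.947), a chaperone of endosomal Toll-like receptors. In bulk liver, more cells of a type and more RNA per cell cannot be told apart, and the part of macrophages in the Enho difference was not tested.

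The part of the cells marked by the other lists was likewise not tested. In ND, HFD, and PRF 50, respectively, the summed levels of 9 endothelial markers were 66.5 to 111, 25.4 to 83.4, and 62.2 to 105 FPKM, led by Clec4g. Those of 9 stellate cell or fibroblast markers, led by Dcn, were 107 to 168, 139.9 to 179, and 129 to 224 FPKM. Those of 5 cholangiocyte markers, led by Spp1, were 26.0 to 28.5, 25.6 to 36.9, and 31.8 to 41.5 FPKM, so that the PRF 50 mice stood above the ND mice and overlapped with the HFD mice.

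For blood cells, 8 lymphocyte markers, led by Cd79b, summed to 3.30 to 5.99 FPKM in ND, 1.90 to 2.38 FPKM in HFD, and 3.06 to 5.63 FPKM in PRF 50, with all HFD mice lowest. Neutrophil markers were led by S100a8 and summed to 54.2, 17.5, and 3.15 FPKM in PRF 50 mice 3, 9, and 10 and to at most 8.92 FPKM in the other mice. Erythroid markers, led by Hba-a1, summed to 109 to 228 FPKM over the 9 livers. Adipocyte markers, of which Lep and Plin1 are listed at 0 throughout, summed to 6.56 and 13.5 FPKM in HFD mice 2 and 3 and to at most 1.60 FPKM elsewhere, and were led by Cfd. Pancreatic acinar markers, led by Cela2a and with Cpa1 listed at 0, summed to at most 1.24 FPKM.

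Inhbe (chromosome 10, 127348857 to 127354411) encodes the beta E subunit of activin E, a liver product that acts on fat storage in adipose tissue. It was 31.0, 33.3, and 26.5 FPKM in ND mice 6, 7, and 9. It was 22.2, 51.0, and 48.1 FPKM in HFD mice 1, 2, and 3, and 21.8, 18.3, and 11.4 FPKM in PRF 50 mice 3, 9, and 10. The PRF 50 mice were the 3 lowest of the 9, HFD mouse 1 was just above them, and HFD mice 2 and 3 were the highest. On the log2 scale the group levels were 4.96 ± 0.16 in ND, 5.29 ± 0.65 in HFD, and 4.14 ± 0.45 in PRF 50 (SD, n = 3 each).

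The log2 fold change of Inhbe was -1.15 in PRF 50 vs HFD (standard error 0.34, adjusted p = 0.121) and -0.82 in PRF 50 vs ND (standard error 0.22, adjusted p = 0.173), and neither passed the adjusted threshold. Without HFD mouse 1 the first was -1.52 with an adjusted limma p of 0.0432, and over all alternatives its adjusted p lay between 0.0432 and 0.298. The fold change fell below 2 without HFD mouse 2 (-0.94), HFD mouse 3 (-0.98), or PRF 50 mouse 10 (-0.90), and that of PRF 50 vs ND exceeded 2 without PRF 50 mouse 3 (-1.01). The value for HFD vs ND was 0.33 (adjusted p = 0.636), and it was 0.70 without HFD mouse 1 (adjusted p = 0.0651), 0.12 without HFD mouse 2, and 0.16 without HFD mouse 3, with an adjusted p between 0.0651 and 0.93 over all alternatives. An annotated antisense gene, Gm47200, overlaps Inhbe and has no value used here. The genes most like Inhbe were Tsnax (r = 0.961), Nfe2l2 (0.957), and Pnldc1 (0.942), and its r with Enho over the 9 livers was -0.785.

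The neighbouring subunit gene Inhbc, which encodes activin beta C, had group means of 21.6, 22.2, and 21.6 FPKM in ND, HFD, and PRF 50, and its log2 fold change in PRF 50 vs HFD was -0.06 (95% interval in all 3 comparisons including 0). Inhba had 1.32, 0.954, and 0.976 FPKM. Among the receptor genes, Acvr1b had 3.05, 3.20, and 3.97 FPKM, Acvr2a 4.33, 4.14, and 4.24 FPKM, and Acvr2b 1.81, 0.670, and 1.47 FPKM as ND, HFD, and PRF 50 means. Acvr1 was 4.01 to 4.50 FPKM in the ND mice, 3.09 to 3.19 FPKM in the HFD mice, and 3.38 to 4.90 FPKM in the PRF 50 mice, with the HFD mice lowest. The coreceptor gene Tgfbr3 had 2.02, 1.66, and 2.54 FPKM.

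Among the signal transducers, Smad2 (2.51, 2.55, and 2.43 FPKM), Smad3 (2.48, 2.13, and 2.44 FPKM), and Smad4 (8.47, 8.10, and 8.32 FPKM) had group means within each other's spread. The inhibitor gene Smad7 had 3.35, 1.92, and 1.91 FPKM. On this list of 17 genes, the number with an adjusted limma p under 0.05 was 0 of 10 tested in PRF 50 vs HFD, 0 of 11 in HFD vs ND, and 0 of 11 in PRF 50 vs ND. An unadjusted p under 0.05 was reached by Acvr1b and Acvr2b in the first, by Acvr2b, Acvr1, and Smad7 in the second, and by Acvr1b and Smad7 in the third. Acvr2b reached the minimum level only through the group where it was high, PRF 50 in the first and ND in the second. Its place among these genes is therefore no support.

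Angptl4 (chromosome 17, 33773750 to 33781830) encodes an inhibitor of lipoprotein lipase that rises in fasting. It was 61.0, 44.0, and 45.5 FPKM in ND mice 6, 7, and 9. It was 65.5, 38.7, and 48.2 FPKM in HFD mice 1, 2, and 3, and 28.6, 47.7, and 40.9 FPKM in PRF 50 mice 3, 9, and 10. The 3 groups overlapped, and PRF 50 mouse 3 was the lowest. The log2 fold change was -0.37 in PRF 50 vs HFD (standard error 0.23, adjusted p = 0.44) and -0.37 in PRF 50 vs ND (adjusted p = 0.503), and in HFD vs ND it was 0.002 (95% interval -0.47 to 0.48), with its sign turned by quantile normalization. The difference to HFD was -0.17 without HFD mouse 1 and -0.16 without PRF 50 mouse 3, and that to ND was -0.22 without ND mouse 6 and -0.16 without PRF 50 mouse 3. Most like Angptl4 were Ltv1 (r = 0.948), Tfb2m (0.939), and Terf2ip (0.916).

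Angptl6 (chromosome 9, 20873808 to 20879727) encodes angiopoietin-related growth factor. It was 7.10, 6.78, and 5.86 FPKM in ND mice 6, 7, and 9. It was 8.57, 8.17, and 5.97 FPKM in HFD mice 1, 2, and 3, and 7.02, 10.4, and 11.2 FPKM in PRF 50 mice 3, 9, and 10. PRF 50 mice 9 and 10 were the highest of the 9, and PRF 50 mouse 3 lay among the ND mice. The log2 fold change was 0.29 in PRF 50 vs HFD (standard error 0.19, adjusted p = 0.45), 0.46 in PRF 50 vs ND (standard error 0.17, adjusted p = 0.325), and 0.17 in HFD vs ND (adjusted p = 0.624). Without 1 mouse, the first was between 0.14 (HFD mouse 3 left out) and 0.47 (PRF 50 mouse 3), and the last between 0.081 (HFD mouse 1) and 0.31 (HFD mouse 3). A230050P20Rik overlaps Angptl6 on the opposite strand with a mean of 6.38 FPKM, so the level of Angptl6 is uncertain. Most like it were Zfp414 (r = 0.913), B3galnt2 (0.897), and Sp4 (0.886).

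Other genes of the family and of lipase control were examined as a list of 13. Angptl8, listed as Gm6484 and encoding a regulator of lipoprotein lipase, had group means of 53.3, 43.4, and 29.9 FPKM in ND, HFD, and PRF 50. The endothelial lipase gene Lipg was 6.17, 5.30, and 5.60 FPKM in the HFD mice and 2.35, 3.31, and 2.16 FPKM in the PRF 50 mice. It fell by 0.90 on the log2 scale without overlap (standard error 0.13, adjusted p = 0.0238), a call lost without any 1 mouse apart from PRF 50 mouse 9 and with no minimum level.

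Lipoprotein lipase (Lpl) had means of 7.06, 5.12, and 9.08 FPKM in ND, HFD, and PRF 50, and hepatic lipase (Lipc) had 95.9, 90.0, and 81.6 FPKM. The anchoring protein gene Gpihbp1 had 21.7, 16.4, and 20.1 FPKM, and the maturation factor gene Lmf1 had 21.3, 18.2, and 16.1 FPKM. The lipase activator Apoc2 was higher in all HFD mice than in all others (means 293, 505, and 305 FPKM), and PRF 50 differed from HFD by -0.74 on the log2 scale (adjusted p = 0.0531). Apoc3 had means of 4088, 3946, and 3476 FPKM, Apoa5 had 634, 542, and 401 FPKM, and Angptl2 had 3.13, 3.40, and 3.78 FPKM. Lipg was the 1 of 11 tested genes called in PRF 50 vs HFD, and 0 of 11 were called in HFD vs ND in limma, with 1 (Apoc2) at an unadjusted p under 0.05.

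Lect2 (chromosome 13, 56542464 to 56548502) encodes leukocyte cell-derived chemotaxin, a hepatokine linked to insulin resistance in muscle. It was 185, 172, and 131 FPKM in ND mice 6, 7, and 9 and 236, 291, and 346 FPKM in HFD mice 1, 2, and 3. In PRF 50 mice 3, 9, and 10 it was 249, 148, and 275 FPKM. All HFD mice were above all ND mice, while PRF 50 mice 3 and 10 lay in the HFD range and PRF 50 mouse 9 in the ND range. On the log2 scale the groups were 7.34 ± 0.26 in ND, 8.17 ± 0.28 in HFD, and 7.76 ± 0.48 in PRF 50 (SD, n = 3 each).

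In HFD vs ND the log2 fold change of Lect2 was 0.83 (standard error 0.19, 95% interval 0.40 to 1.26, adjusted p = 0.094), which did not pass the adjusted threshold and did not pass it in any alternative, where the adjusted p was between 0.0641 and 0.308. It was -0.41 in PRF 50 vs HFD (adjusted p = 0.42) and 0.42 in PRF 50 vs ND (adjusted p = 0.513). Without PRF 50 mouse 9 these were -0.14 and 0.70, and the second was 0.25 without PRF 50 mouse 10 and 0.28 without ND mouse 9. Of the known LECT2 receptors, Met had group means of 12.5, 17.4, and 16.3 FPKM, and its HFD and PRF 50 mice were each above all ND mice, with a log2 fold change of 0.44 in HFD vs ND (adjusted p = 0.128). Tie1 had 2.27, 1.78, and 1.93 FPKM, and 0 of 2 tested receptors had an adjusted limma p under 0.05 in any comparison, with Met at an unadjusted p under 0.05 in both comparisons with ND. Most like Lect2 were Poc1b (r = 0.970), Nudt5 (0.963), and 1110019D14Rik (0.919).

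Ahsg (chromosome 16, 22891277 to 22899449) encodes fetuin-A, a plasma protein that binds calcium phosphate and inhibits the insulin receptor. It was 4007, 3619, and 3046 FPKM in ND mice 6, 7, and 9. It was 4138, 3486, and 3061 FPKM in HFD mice 1, 2, and 3, and 4418, 4773, and 4383 FPKM in PRF 50 mice 3, 9, and 10. The ND and HFD mice were spread over the same range, and all PRF 50 mice were above both. The differences were 0.36 on the log2 scale both to HFD (95% interval -0.05 to 0.76, adjusted p = 0.306) and to ND (adjusted p = 0.459). Between HFD and ND the log2 fold change was 0.00 (95% interval -0.46 to 0.46). The hepatocyte markers summed to 31078, 24821, and 22634 FPKM in ND mice 6, 7, and 9, to 30087, 25056, and 21708 FPKM in HFD mice 1, 2, and 3, and to 32632, 29528, and 26480 FPKM in PRF 50 mice 3, 9, and 10. Their sums overlapped between the groups, and the median log2 fold change of the 9 tested markers was 0.38 in PRF 50 vs HFD, of the size of the Ahsg difference, and 0.12 in PRF 50 vs ND. In limma, 0 of these 9 had an adjusted p under 0.05 in PRF 50 vs HFD and 2 had an unadjusted p under 0.05, and the part of hepatocyte RNA as a whole in the Ahsg difference was not tested. The antisense gene Gm30505 overlaps Ahsg with a mean of 0.872 FPKM.

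Fetub (chromosome 16, 22918334 to 22939778), the next gene on the chromosome, encodes fetuin-B, a protease inhibitor of the same family. It was 426, 272, and 227 FPKM in ND mice 6, 7, and 9. It was 331, 216, and 208 FPKM in HFD mice 1, 2, and 3, and 306, 340, and 226 FPKM in PRF 50 mice 3, 9, and 10. The 3 groups overlapped, and ND mouse 6 was the highest. The log2 fold change was 0.22 in PRF 50 vs HFD (adjusted p = 0.636), -0.27 in HFD vs ND (adjusted p = 0.68), and -0.05 in PRF 50 vs ND (adjusted p = 0.949), the last with its sign turned by quantile normalization. Without 1 mouse, the first was between 0.097 (PRF 50 mouse 9 left out) and 0.43 (HFD mouse 1), the second between -0.48 (HFD mouse 1) and -0.012 (ND mouse 6), and the last between -0.25 (ND mouse 9) and 0.21 (ND mouse 6).

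The type 3 cystatin relatives Hrg, Kng1, and Kng2 follow the fetuin genes on the chromosome. Hrg had group means of 500.3, 526, and 627 FPKM in ND, HFD, and PRF 50, Kng1 had 1143, 1054, and 1174 FPKM, and Kng2 had 162, 184, and 193 FPKM. The insulin receptor gene Insr had 15.4, 15.2, and 15.7 FPKM, and its substrates Irs1 (1.81, 1.77, and 1.67 FPKM) and Irs2 (2.04, 1.53, and 1.77 FPKM) were low. The meprin gene Mep1a is listed at 0 in all livers. On this list, 0 of 6 tested genes had an adjusted or an unadjusted limma p under 0.05 in any of the 3 comparisons. Over the 9 livers, Ahsg and Fetub had an r of 0.621, and Ahsg and Enho of 0.845. The genes most like Ahsg were Dnase2a (r = 0.923), Ang (0.922), and Serpina11 (0.918), and those most like Fetub were Iah1 (0.979), Gar1 (0.963), and Ctsa (0.959).

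Acute-phase proteins are the other large group of plasma proteins made in the liver, and they were uneven among the PRF 50 mice. The serum amyloid gene Saa1 was 5621, 2925, and 105 FPKM in PRF 50 mice 3, 9, and 10, 345, 124, and 204 FPKM in HFD mice 1, 2, and 3, and 89.0 to 129.7 FPKM in the ND mice. PRF 50 mice 3 and 9 were far above the others, and PRF 50 mouse 10 was not. Of 20 acute-phase genes, 0 had an adjusted limma p under 0.05 in PRF 50 vs HFD and 5 an unadjusted p under 0.05 (4 higher and 1 lower), with a median log2 fold change of 0.67. The part of this response in the levels of Ahsg, Lect2, and Enho was not tested. Between ND and HFD, 2 of 20 rose, Lcn2 by 2.29 (adjusted p = 0.0309) and Il1rn by 0.95 (adjusted p = 0.0332). The call of Lcn2 was lost without HFD mouse 1 or 3 or ND mouse 6 or 9, and that of Il1rn without any 1 mouse, and both with all 9 mice in 1 fit or with no minimum level. The median in PRF 50 vs ND was 0.94, with 0 of 20 at an adjusted limma p under 0.05 and 7 at an unadjusted p under 0.05.

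Among 21 other secreted regulators of the liver, 0 of 18 tested had an adjusted limma p under 0.05 in PRF 50 vs HFD, with 4 at an unadjusted p under 0.05 (Sepp1, Tsku, Igfbp2, and Itih3). The median log2 fold change was 0.056. In HFD vs ND, Lcn2 was the 1 of 18 called, and in PRF 50 vs ND 0 of 18 were called in limma and 5 had an unadjusted p under 0.05. Of the 9 members and these 18, the 1 that passed the adjusted limma threshold in PRF 50 vs HFD was Enho. This count is near the share of all 10084 tested genes that passed, 3.59%.

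**Figure D4:**
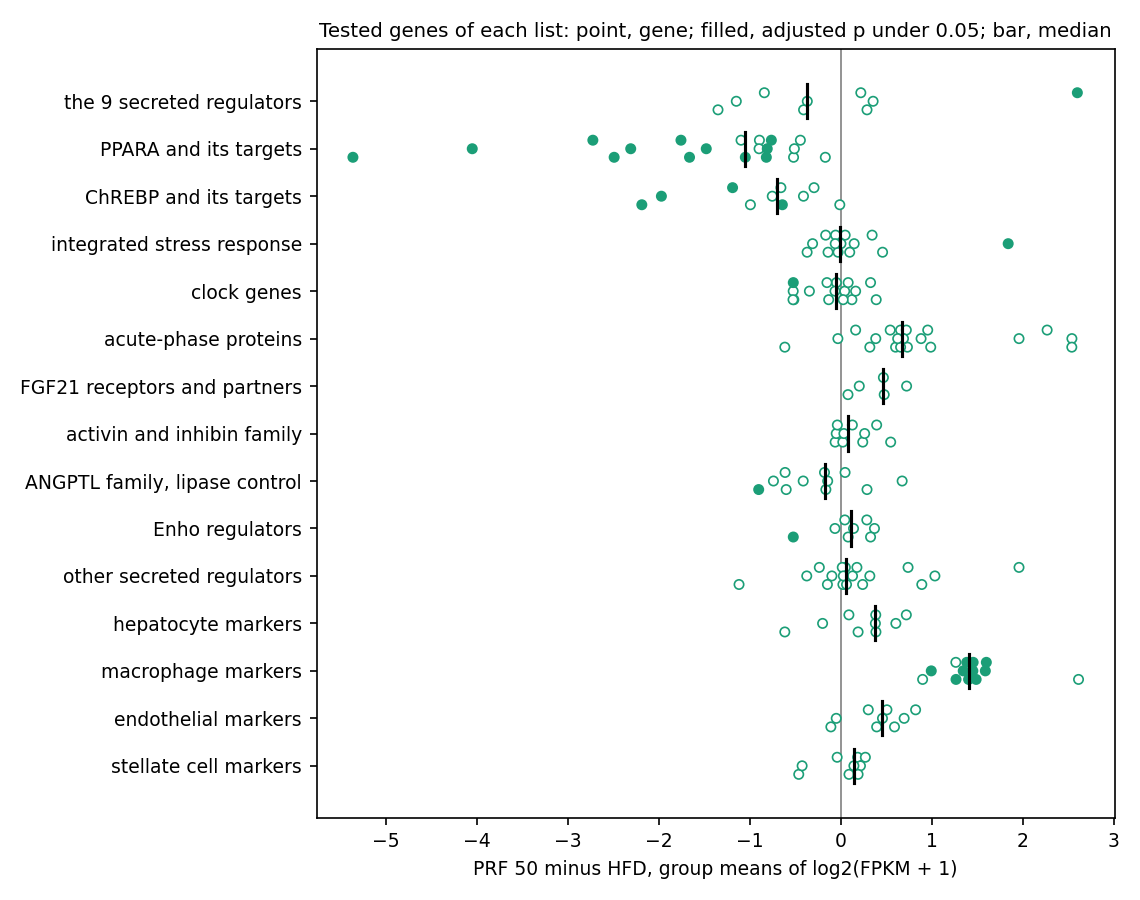
Log2 fold changes of PRF 50 vs HFD for the tested genes of each list, as differences between the means of 3 PRF 50 and 3 HFD mice on the log2(FPKM + 1) scale. Each point is 1 gene, filled points have an adjusted limma p under 0.05, and bars are medians. The 9 secreted regulators have a median of -0.37 with Enho at 2.60, genes of PPARA and its targets have a median of -1.05, and macrophage markers have a median of 1.40.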

How the data were processed

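The data are RNA-Seq of liver from 9 mice in 3 groups of 3, as the sample labels name them. The submitters' processing notes name TopHat and mm10 for the alignment. Before it the authors trimmed reads with FASTX_Trimmer and BBMap, and after it they took FPKM from Cufflinks and applied a geometric normalization, stated together with EdgeR. The authors deposited 1 log2 value for each gene symbol and mouse, taken here as log2(FPKM + 1). The added 1 is inferred from a lowest value of 0. On this scale the fold changes of genes with low values are understated.

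Each pair of groups was fitted on its 6 mice with limma 3.58.1 under R 4.3.3, using a mean-variance trend, over genes averaging 1 FPKM or more in those mice. Tests are two-sided, with p adjusted over all genes fitted by the method of Benjamini and Hochberg. The steps were tested on simulated data. Depth is known only relative to HFD mouse 1. Gene positions and transcript lengths are from GENCODE M21 on GRCm38, and promoters from RefSeq.

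The genes named were taken from the members, list genes with an adjusted p under 0.05 (the 6 with the smallest p of a longer list), direct partners of a member that average 1 FPKM or more, cell type markers, and the 3 genes most correlated with each member. Members and lists were chosen with earlier results of these data known. Enho and Inhbe are also on the study's own list of differing genes, so they are not independent of these samples. The promoter motifs were chosen after the values were seen. The alternatives were 1 fit of all 9 mice, a pseudocount of 0.1, dropping the minimum level or raising it to 10 FPKM, quantile normalization, median-of-ratios scaling, eBayes with no trend, and the omission of each mouse in turn.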

Additional observations from a re-analysis of the deposited data

How the results depend on the processing

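The call of Enho in PRF 50 vs HFD and in PRF 50 vs ND held under all alternatives, with an adjusted limma p of at most 0.0351. Of these, the minimum of 10 FPKM is no support, because Enho reached it only through the PRF 50 mice, where it was high. The number of all genes called moved more. In PRF 50 vs HFD it was 362, and 15 (without HFD mouse 3) to 242 without 1 mouse and 126 with no minimum level. In HFD vs ND it was 133, and 35 (without HFD mouse 3) to 140 without 1 mouse and 37 with no minimum level. In PRF 50 vs ND it was 46, and 4 (without ND mouse 7) to 71 without 1 mouse, 107 with all 9 mice in 1 fit, and 11 with no minimum level. Of the 9 members, 1 to 2 were called in PRF 50 vs HFD without 1 mouse, the other being Inhbe. Signs turned for differences near 0. In HFD vs ND, leaving out 1 mouse gave log2 fold changes from -0.23 to 0.20 for Enho, -0.19 to 0.18 for Angptl4, and -0.11 to 0.10 for Ahsg. In PRF 50 vs ND they were -0.73 to 0.42 for Gdf15 and -0.25 to 0.21 for Fetub. With quantile normalization, Angptl4 was -0.002 in HFD vs ND and Fetub was 0.065 in PRF 50 vs ND. The cause of these changes was not tested. Leaving out a mouse also lowers the number of mice, and dropping the minimum level also raises the number of genes tested. A minimum of 10 FPKM gave no value for members below it. No paired analysis was made, because the mouse numbers do not pair mice of different groups. Low fragment numbers limit the precision of Fgf21, and 3 mice per group that of every comparison.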
